A study of Mus musculus with 16 samples.

Results

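The genes described here carry glucose into the cell, break it down to pyruvate and decide whether that pyruvate becomes lactate or enters the mitochondrion. They were taken by symbol and Ensembl identifier from a list of 38 genes that covers the glucose transporters, each enzyme of glycolysis with its main isoforms, lactate dehydrogenase, the monocarboxylate transporters, the mitochondrial pyruvate carrier and pyruvate dehydrogenase with its kinases. All 38 were among the 39043 entries of the total RNA table, and all 38 were among the 20254 entries that passed the filter on low counts. Total RNA was compared among c-kit-sorted cardiac cells grown in culture (CSCs, n = 3), cardiomyocytes derived from them in vitro (iCMs, n = 3) and adult cardiomyocytes (aCMs, n = 2), all from C57BL/6 mice, given as C57BL/6J in the methods.

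CSCs were cardiac cells sorted without CD45 and CD31 and with c-kit, which were then cloned and grown with serum. CSC and iCM libraries are described in the methods as biological replicates of a single clone, which the Y-linked transcripts given below go against. iCMs were the whole population obtained when cardiospheres of these cells were kept in StemPro medium with added factors, and they were not sorted afterwards. By the methods, Wnt5A, Wnt11, beta-FGF, BMP-4 and Activin A were given first and DKK1 after them. aCMs came from adult hearts digested with collagenase, pooled from several animals, and were not cultured. CSCs and iCMs differed in their medium as well as in their differentiation, and both differed from aCMs in having been cultured, so that culture conditions and cell state cannot be told apart. The p-values set the difference between groups against the scatter of these samples within groups. How much of that scatter is between clones or animals is not known.

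Glycolysis converts glucose to pyruvate in the cytosol, and almost every step is run by enzymes that exist as several isoforms encoded by separate genes. Skeletal and heart muscle replace the ubiquitous isoforms by muscle isoforms as they mature, with Slc2a4 for Slc2a1 at glucose entry, Hk2 for Hk1 at phosphorylation, Pfkm at the phosphofructokinase step, Pgam2 for Pgam1 and Eno3 for Eno1 in the lower part. The fetal heart relies on glycolysis and the adult heart mainly on fatty acids and lactate, which heart-type lactate dehydrogenase, encoded by Ldhb, turns back into pyruvate for the mitochondria.

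Several measurements on the libraries bear on these comparisons. The libraries held 11.1 to 63.2 M counts, with aCMs among the shallowest at 11.1 and 14.6 M. The 38 genes together took 0.747% to 1.14% of the counts in CSCs, 0.878% to 1.01% in iCMs and 1.98% to 2.06% in aCMs. The 8 cardiomyocyte markers summed to 51.8 to 119 CPM (counts per M counts of a library) in CSCs, 14800 to 22800 in iCMs and 155000 to 187500 in aCMs, so all 3 groups fell in the order that their labels imply. Kit, the gene of the sorting marker, was at 0.0836 CPM or less in the CSC libraries and at 39.6 to 45.0 CPM in iCMs, against the CSC label. The iCM libraries also held markers of other cells, with erythroid sums of 6378 to 26220 CPM against 3.04 or less in CSCs and 18.8 to 39.7 in aCMs, endothelial sums of 1135 to 1345 CPM against 9.80 or less in CSCs, and neutrophil sums of 61.8 to 113 CPM against 3.07 or less elsewhere. Endothelial RNA was present in aCMs as well, at 895 to 1198 CPM. Leukocyte and macrophage markers summed to 20.7 to 70.8 CPM in CSCs, 150 to 264 in iCMs and 95.7 to 192 in aCMs. All of these markers but Cd14 were higher in iCMs than in CSCs by the thresholds given below. Cd14 was at 15.55 to 62.78 CPM in CSCs and 30.97 to 39.37 in iCMs. Fibroblast markers summed to 6110 to 13130 CPM in CSCs, 4298 to 4523 in iCMs and 327 to 558 in aCMs. By the thresholds given below, 3 of these 6 were higher in iCMs than in CSCs (Col1a2, Dcn and Postn) and 2 lower (Col1a1 and Col3a1). Mesothelial markers summed to 174 to 211 CPM in CSCs, 296 to 548 in iCMs and 17.4 in both aCM libraries. Of these 5, Krt18, Krt19, Upk3b and Wt1 were higher in iCMs than in CSCs. Msln was not, at 171 to 208 CPM in CSCs and 97.8 to 180 in iCMs. Transcripts of 4 Y-linked genes summed to 0.322 CPM or less in CSCs and to 49.7 to 62.7 CPM in iCMs, and to 0.526 and 140 CPM in the aCM libraries. Xist, the RNA of the inactive X chromosome, was at 562 to 635 CPM in CSCs and at 187 to 210 CPM in iCMs. A clone without a Y chromosome cannot give cells that transcribe Y-linked genes, so in iCMs vs CSCs a difference in the sex and origin of the cells and a difference in differentiation cannot be told apart. Among the CSC libraries the second stood apart, with a sum of 1202 CPM for 6 proliferation genes against 109 and 590 in the others. aCM library 1 held 94.0 CPM of the skeletal myosin gene Myh1, and library 2 held 1.73 CPM. Myh2, Myh4, Myh8 and Atp2a1 were also higher in library 1. Acta1, Mylpf, Tnnt3, Actn3 and Tnni2 were higher in library 2, with Acta1 at 544 and 792 CPM. All 14 skeletal muscle markers together summed to 935 and 821 CPM in the 2 libraries. In such bulk samples, fewer cells of a type and less RNA per cell cannot be told apart.

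Levels are given in CPM after TMM scaling, always for a gene against itself in another group, since no transcript lengths were at hand to compare different genes. Fold changes are log2 values of the first group minus the second from the edgeR quasi-likelihood fit, with their standard errors (SE). A gene was called at an adjusted p below 0.05 together with a change of at least 2.5-fold. The 3 comparisons share libraries, so their counts are not independent of each other.

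Relative to CSCs, iCMs had higher transcript levels of 13 of the 38 genes and lower levels of 0. In this comparison 22% of all tested genes were called higher and 7.16% lower. By the unadjusted p alone, at 0.05, 5 of the 38 genes were lower (Hk1, Tpi1, Pgam1, Eno1 and Pkm), and DESeq2 also called 0. The median log2 fold change of the 38 genes was 0.73, beside -0.02 over all tested genes. The 13 genes were the transporters Slc2a3, Slc2a4 and Slc2a12, the hexokinase Hk3, Pfkfb3, Aldoc, Pgam2, Eno2, Ldhb, the kinases Pdk2 and Pdk4, Pdhb and Slc16a3. None of these calls was lost in any alternative that was run, apart from Hk3, which the stricter filter on low counts did not test. Hk2 was called in addition without CSC library 2 (log2 fold change 1.55, adjusted p = 0.000122).

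Relative to aCMs, 21 of the 38 genes were lower in iCMs and 7 were higher. The background in this comparison was 15.3% of tested genes called lower and 19.6% called higher. The median was -1.53 on the log2 scale over the 38 genes and 0.19 over all tested genes. The genes that were higher in iCMs were Slc2a3, Pfkfb3, Pfkfb4, Aldoc, Eno2, Pdk3 and Slc16a3. Scaling by library totals alone, which raises the median of all tested genes to 0.89, gave 14 lower and 10 higher, and among all called genes it moved the share called higher from 56.2% to 79.3%.

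aCMs exceeded CSCs in 22 of the 38 genes and were below them in 4, which were Pfkfb4, Pgam1, Eno1 and Pdk3. Among all tested genes, 24.2% were called higher and 20.4% lower in aCMs. The median log2 fold change was 2.19 for the 38 genes and -0.10 for all tested genes. With library totals alone the median of all tested genes was -0.76, the counts were 20 higher and 5 lower, and the share called higher among all called genes moved from 54.2% to 36.3%. On the log2 CPM scale, the iCM mean lay between the CSC and aCM means for 17 of the 38 genes (44.7%). It was above both for 9 (23.7%) and below both for 12 (31.6%). Over all tested genes these shares were 49.9%, 27.9% and 22.2%.

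**Figure D1:**
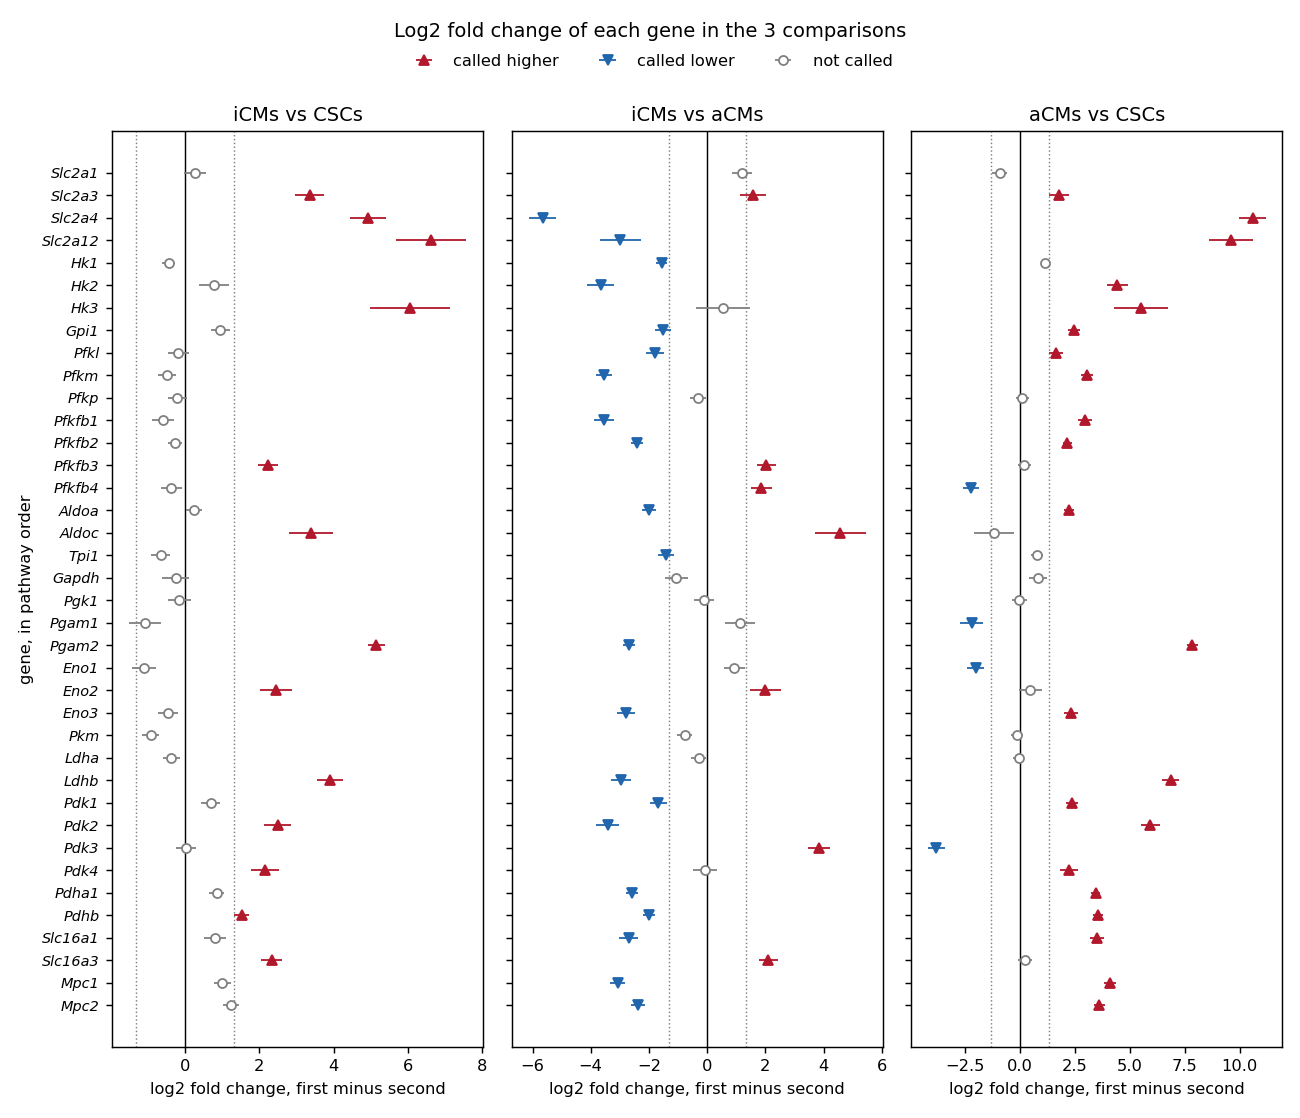
Log2 fold change of each of the 38 genes, in pathway order on the vertical axis, from left to right in iCMs vs CSCs, in iCMs vs aCMs and in aCMs vs CSCs, with SE as error bars and dotted lines at a 2.5-fold change. Triangles mark called genes, and the left panel holds 13 called higher and 0 called lower, the middle panel 7 and 21, and the right panel 22 and 4.

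Glucose enters the cardiomyocyte through GLUT4, the insulin-responsive transporter encoded by Slc2a4, and through the ubiquitous GLUT1, encoded by Slc2a1. Slc2a4 was at 0.452, 0.273 and 1.23 CPM in the CSC libraries, at 16.3, 24.7 and 14.1 CPM in the iCM libraries and at 1026 and 834 CPM in the aCM libraries. The groups did not overlap, and iCMs lay far from both CSCs and aCMs. The log2 fold change of Slc2a4 was 4.92 (SE 0.48, adjusted p = 2.66e-05) in iCMs vs CSCs and -5.66 (SE 0.48, adjusted p = 1.41e-05) in iCMs vs aCMs. Slc2a1 was at 155, 90.1 and 60.4 CPM in CSCs, 118, 128 and 122 CPM in iCMs and 62.0 and 45.4 CPM in aCMs. It was not called in any comparison, and its values in CSCs and iCMs overlapped. The iCM level of Slc2a1 was above that of both aCM libraries (log2 fold change 1.20, SE 0.35, adjusted p = 0.0175) but below the fold threshold, and it passed that threshold in some of the alternatives, among them the fits without the filter on low counts and without aCM library 1.

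The other 2 transporters were scarce. Slc2a3 encodes GLUT3, a high-affinity transporter known from neurons and blood cells, and was at 0.519, 0.515 and 0.643 CPM in CSCs, 4.93, 6.92 and 5.32 CPM in iCMs and 2.63 and 1.25 CPM in aCMs. It was thus highest in iCMs, which exceeded CSCs by 3.36 on the log2 scale (SE 0.40, adjusted p = 9.77e-05) and aCMs by 1.58 (SE 0.45, adjusted p = 0.0148). The second of these calls was lost without aCM library 2 (1.15) and without iCM library 2 (1.43, adjusted p = 0.0511). The neutrophil marker sum given above was highest in iCMs too, as were the erythroid and mesothelial sums. Within iCMs, Slc2a3 was highest in library 2, as were the mesothelial and endothelial sums. The neutrophil and erythroid sums were highest in library 3. In aCMs, Slc2a3 and the erythroid sum were higher in library 1, and the neutrophil and endothelial sums in library 2. The mesothelial sum was 17.4 CPM in both. The part of these cells in the result was not tested. Slc2a12, which encodes GLUT12, another transporter of heart and skeletal muscle, was at 0.0335, 0 and 0.0292 CPM in CSCs, 0.728, 1.47 and 4.79 CPM in iCMs and 16.4 and 19.2 CPM in aCMs. The CSC value rests on 3 counts in all, which gives a ratio of 93.5 for iCMs over CSCs with a 95% counting interval from 31.3 to 459. iCM library 3 held several times more Slc2a12 than the other iCM libraries, and all 3 stayed below both aCM libraries.

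Hexokinase traps glucose as glucose 6-phosphate, and muscle expresses the HK2 isoform beside the ubiquitous HK1. Hk2 was at 20.2, 55.8 and 15.5 CPM in CSCs, 55.2, 54.9 and 46.4 CPM in iCMs and 710 and 602 CPM in aCMs. CSC library 2 reached the iCM values, so that CSCs and iCMs overlapped, while aCMs stood far above both (iCMs vs aCMs -3.65, SE 0.46, adjusted p = 0.000152). Hk1 was at 130, 152 and 121 CPM in CSCs, 97.3, 115 and 86.3 CPM in iCMs and 307 and 281 CPM in aCMs. All 3 iCM values of Hk1 lay below all 3 CSC values, a difference that did not pass the threshold (-0.43, SE 0.17, adjusted p = 0.061), and aCMs were above iCMs by 2.94-fold. That call of Hk1 was lost with library totals (-0.85). Hk3, the hexokinase of white blood cells, was at 0.0335, 0 and 0 CPM in CSCs, 0.674, 0.516 and 2.13 CPM in iCMs and 0.263 and 1.15 CPM in aCMs. Only 2 counts stand behind the CSC value, and the ratio of iCMs to CSCs was 71.6 with a counting interval from 19.1 to 603. Within iCMs, Hk3 was highest in library 3, which also had the highest neutrophil marker sum, at 113 CPM. The leukocyte and macrophage sum was highest there too, at 264 CPM against 150 and 189 in libraries 1 and 2. Libraries 1 and 2 went the other way, with Hk3 higher in library 1 and both sums lower there. Members of the leukocyte and macrophage list differed, with Ptprc lowest in library 3 and Lyz2 in the order of Hk3. In aCMs both sums were higher in library 2, the leukocyte and macrophage sum at 192 against 95.7 CPM. Hk3 was higher there too, and the part of these cells in the results was not tested. Its call in aCMs vs CSCs was lost without aCM library 2 (4.02, adjusted p = 0.118). Gpi1, the isomerase that makes fructose 6-phosphate, was at 149, 293 and 244 CPM in CSCs, 404, 518 and 404 CPM in iCMs and 1336 and 1182 CPM in aCMs, and the iCM rise over CSCs stayed under the fold threshold (0.95, SE 0.25, adjusted p = 0.0113). aCMs exceeded iCMs in Gpi1 by 2.85-fold, a call that library totals removed (-0.80).

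**Figure D2:**
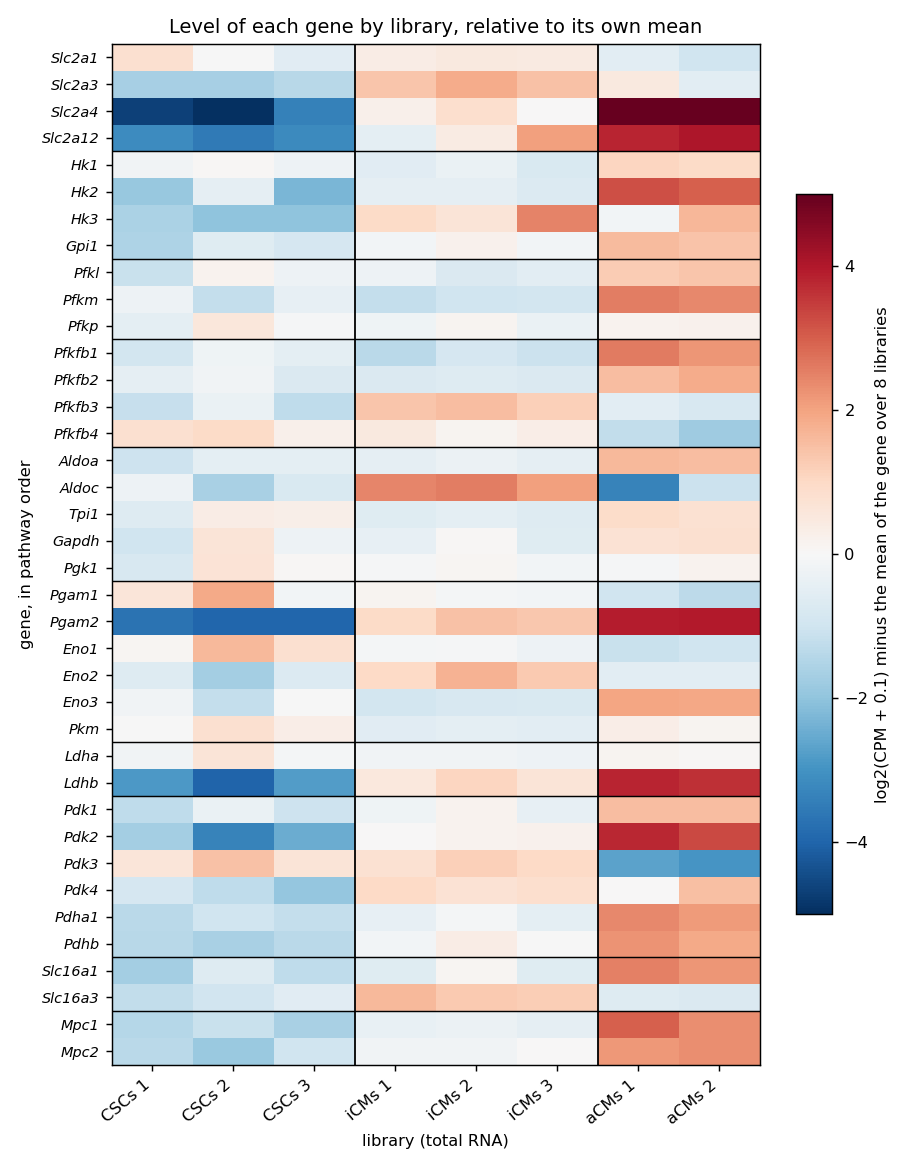
Levels of the 38 genes by library, drawn as log2 values relative to the mean of the same gene over the 8 libraries, with genes in pathway order and lines between the steps of the pathway. Slc2a4, Slc2a12, Pgam2, Ldhb and Pdk2 go from blue in CSCs to red in aCMs, and Slc2a3, Pfkfb3, Aldoc, Eno2 and Slc16a3 are reddest in the 3 iCM libraries.

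Phosphofructokinase commits glucose to glycolysis and is encoded by Pfkm in muscle, Pfkl in liver and Pfkp in platelets and many other cells. Pfkm was at 259, 133 and 229 CPM in CSCs, 133, 151 and 161 CPM in iCMs and 1817 and 1622 CPM in aCMs. The muscle gene was therefore already present in CSCs, was not higher in iCMs than in CSCs (-0.48, SE 0.25, adjusted p = 0.13) and was 11.6-fold higher in aCMs than in iCMs (-3.54, SE 0.28, adjusted p = 1.03e-05). Pfkl was at 46.5, 113 and 83.0 CPM in CSCs, 83.9, 60.9 and 69.4 CPM in iCMs and 240 and 259 CPM in aCMs. It too did not separate CSCs from iCMs, and it was called lower in iCMs than in aCMs (-1.80, SE 0.31, adjusted p = 0.00108), a call that library totals removed (-1.09). Pfkp was at 50.8, 106 and 69.3 CPM in CSCs, 60.9, 78.3 and 57.4 CPM in iCMs and 80.4 and 82.1 CPM in aCMs and was called nowhere.

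The Pfkfb genes encode bifunctional enzymes that make and remove the allosteric activator of phosphofructokinase. Pfkfb2, the heart isoform, was at 37.3, 44.9 and 30.7 CPM in CSCs, 30.9, 32.2 and 31.1 CPM in iCMs and 149 and 186 CPM in aCMs. Its levels in iCMs and CSCs overlapped, and aCMs exceeded iCMs by 5.34-fold. Pfkfb3, the inducible isoform of proliferating and hypoxic cells, ran the other way. It was at 8.63, 15.3 and 7.95 CPM in CSCs, 50.2, 56.4 and 43.8 CPM in iCMs and 13.3 and 11.2 CPM in aCMs. The 3 iCM libraries exceeded all others, by 2.24 on the log2 scale over CSCs (SE 0.28, adjusted p = 0.000133) and by 2.04 over aCMs (SE 0.33, adjusted p = 0.000648). Pfkfb1, known from liver and muscle, was at 2.58, 4.21 and 3.48 CPM in CSCs, 1.89, 2.73 and 2.26 CPM in iCMs and 30.5 and 23.0 CPM in aCMs, where it exceeded iCMs by 11.7-fold. Pfkfb4, the testis isoform that is also hypoxia-inducible, was at 13.3, 14.6 and 8.92 CPM in CSCs, 10.7, 8.29 and 9.58 CPM in iCMs and only 3.15 and 2.11 CPM in aCMs. It was called lower in aCMs than in CSCs (-2.23, SE 0.36, adjusted p = 0.000463), while CSCs and iCMs overlapped.

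Aldolase splits the sugar into triose phosphates, and triose phosphate isomerase, glyceraldehyde phosphate dehydrogenase and phosphoglycerate kinase carry them on. Aldoa, the muscle and general isoform, was at 815, 1199 and 1202 CPM in CSCs, 1225, 1371 and 1218 CPM in iCMs and 5180 and 4897 CPM in aCMs. The iCM mean of Aldoa was near that of CSCs (0.25, SE 0.22, adjusted p = 0.37) and was 3.96-fold below that of aCMs, a call that library totals removed (-1.28). Aldoc, the brain isoform, was scarce at 0.753, 0.227 and 0.497 CPM in CSCs, 5.50, 5.97 and 4.12 CPM in iCMs and 0 and 0.383 CPM in aCMs. Like Pfkfb3, it had its highest level in iCMs, at 3.40 over CSCs (SE 0.59, adjusted p = 0.00111) and 4.58 over aCMs (SE 0.87, adjusted p = 0.00189). Tpi1 was at 410, 832 and 791 CPM in CSCs, 422, 459 and 411 CPM in iCMs and 1200 and 1093 CPM in aCMs. Its call in iCMs vs aCMs (-1.41, SE 0.28, adjusted p = 0.00251) fell below the fold threshold without the filter (-1.24), without aCM library 1 (-1.31) and with library totals (-0.70). Gapdh ranged from 402 to 1242 CPM in CSCs, from 527 to 830 CPM in iCMs and from 1312 to 1399 CPM in aCMs. Pgk1 ranged from 31.4 to 88.9 CPM in CSCs, from 49.7 to 58.5 CPM in iCMs and from 53.0 to 62.8 CPM in aCMs. Neither of the last 2 genes was called in any comparison, and the highest CSC value of both was that of library 2. Without this library, Gapdh was called higher in aCMs than in CSCs (1.34, adjusted p = 0.00293).

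In the lower part of the pathway, phosphoglycerate mutase showed a reversal of isoforms. Pgam2, the muscle isoform, was at 7.61, 6.41 and 6.37 CPM in CSCs, 195, 276 and 253 CPM in iCMs and 1533 and 1583 CPM in aCMs. The replicates agreed closely and the groups did not overlap, with 5.15 in iCMs vs CSCs (SE 0.22, adjusted p = 9.73e-08) and -2.69 in iCMs vs aCMs (SE 0.21, adjusted p = 8.83e-06). Pgam1, the isoform of most other tissues, was at 37.4, 91.6 and 22.3 CPM in CSCs, 26.9, 22.8 and 22.0 CPM in iCMs and 12.1 and 9.78 CPM in aCMs. It was called lower in aCMs than in CSCs (-2.21, SE 0.53, adjusted p = 0.00464), and CSCs and iCMs overlapped. The entry Pgam1-ps2, a near-identical copy, held more counts than Pgam1 itself, with 139, 280 and 116 CPM in CSCs, 105, 92.2 and 96.4 CPM in iCMs and 41.9 and 55.5 CPM in aCMs, so reads may have been divided between them. Summed with that copy, Pgam1 differed by -1.94 in aCMs vs CSCs (adjusted p = 0.00159) and was again not called in iCMs vs CSCs (-0.91, adjusted p = 0.0387).

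The promoters of this pair are shown as an example of members that moved in opposite directions from CSCs to aCMs. They are the 250 bases before the start site in RefSeq (GRCm38.p6), Pgam2 at chr11:5803797-5804046 on the minus strand and Pgam1 at chr19:41911621-41911870 on the plus strand. Capitals mark CAGCTG, an E-box that binds muscle basic helix-loop-helix factors, and ACGTG, the core of the hypoxia response element, on either strand.
Pgam2: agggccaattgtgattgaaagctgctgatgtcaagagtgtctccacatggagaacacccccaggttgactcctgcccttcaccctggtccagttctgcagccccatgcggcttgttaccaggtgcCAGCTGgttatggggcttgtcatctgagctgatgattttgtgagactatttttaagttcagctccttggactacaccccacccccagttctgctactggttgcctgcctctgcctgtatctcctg
Pgam1: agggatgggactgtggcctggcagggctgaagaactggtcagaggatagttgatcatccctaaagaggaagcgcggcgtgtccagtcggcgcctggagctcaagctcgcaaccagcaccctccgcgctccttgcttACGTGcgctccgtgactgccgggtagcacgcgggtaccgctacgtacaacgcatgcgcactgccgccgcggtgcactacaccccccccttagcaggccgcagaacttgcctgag
The E-box of Pgam2 begins 125 bases before its start site, and the ACGTG of Pgam1 begins 114 bases before its own. The pairs Eno3 and Eno1, and Pdk2 and Pdk3, were also called in opposite directions in aCMs vs CSCs. Eno3 and Eno1 had neither motif in their windows, and Pdk2 and Pdk3 both had ACGTG without CAGCTG. RefSeq windows matched 36 of the 38 genes by symbol, all but Slc2a3 and Slc2a4, in 56 windows of which some overlap. CAGCTG was in 10.7% of these windows and in 13.0% of 32851 windows of all genes, and ACGTG was in 35.7% and 16.6%. CACGTG, a further E-box, holds ACGTG on both strands and is counted among these. A match to the MEF2 element was in 0 of the 56 windows and in 0.508% of all windows. The genes with CAGCTG were Gpi1, Pdk1, Pfkfb1, Pfkfb2, Pgam2 and Pkm, and 16 of the 36 genes had ACGTG. The matches are letters in a window, not measured binding.

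Enolase makes phosphoenolpyruvate, and its muscle gene Eno3 did not follow Pgam2. Eno3 was at 538, 264 and 587 CPM in CSCs, 316, 344 and 355 CPM in iCMs and 2350 and 2276 CPM in aCMs. Like Pfkm, it was well expressed in CSCs and not higher in iCMs (-0.45, SE 0.28, adjusted p = 0.199), and aCMs exceeded iCMs by 6.84-fold (-2.77, SE 0.31, adjusted p = 7.14e-05). Eno1, the ubiquitous isoform, was at 397, 1129 and 639 CPM in CSCs, 349, 357 and 311 CPM in iCMs and 173 and 184 CPM in aCMs. Its 3 groups did not overlap and descended from CSCs to aCMs, and the call was made in aCMs vs CSCs (-2.02, SE 0.38, adjusted p = 0.00122) but not in iCMs vs CSCs (-1.09, SE 0.32, adjusted p = 0.0181). Without CSC library 1 the latter was called as well (-1.38). Eno2, the neuronal isoform, was at 0.970, 0.409 and 0.936 CPM in CSCs, 3.23, 5.38 and 3.99 CPM in iCMs and 1.05 and 1.05 CPM in aCMs. It was highest in iCMs (2.45 over CSCs, SE 0.43, adjusted p = 0.00128), but its call over aCMs (1.99, SE 0.54, adjusted p = 0.0119) was lost when aCM library 1 (2.02, adjusted p = 0.0628) or library 2 (2.02, adjusted p = 0.0648) was left out. Pkm, the pyruvate kinase gene whose splice forms cannot be told apart in counts per gene, ranged from 1664 to 2917 CPM in CSCs, from 1150 to 1211 CPM in iCMs and from 1870 to 2154 CPM in aCMs. All iCM values of Pkm lay below all others, at -0.92 against CSCs (SE 0.23, adjusted p = 0.00942) and -0.77 against aCMs (SE 0.26, adjusted p = 0.0315), both under the fold threshold.

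**Figure D3:**
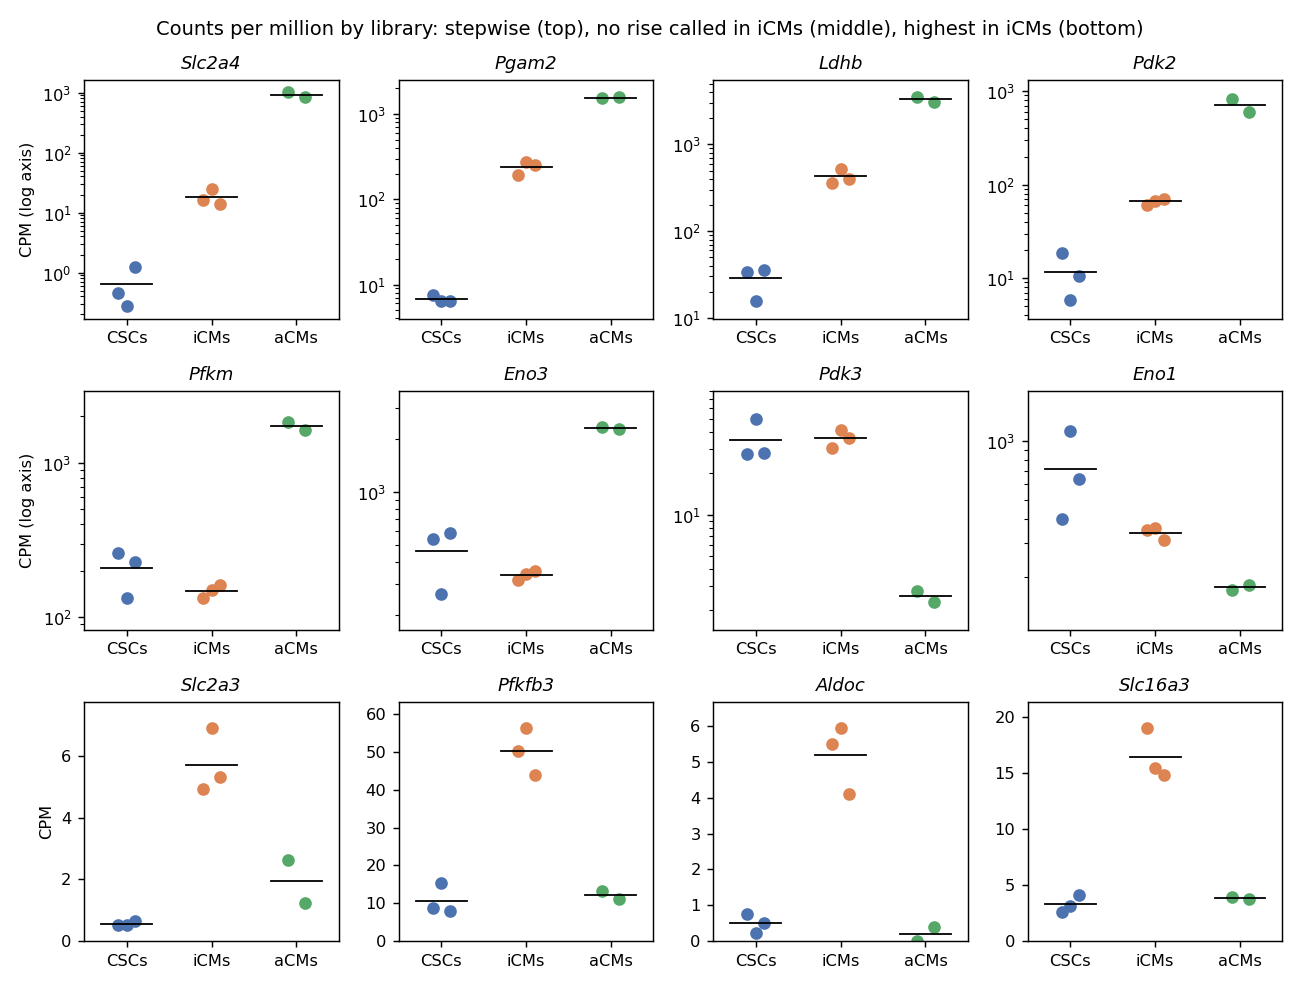
CPM by library for 12 of the genes, with a point per library and a line at the group mean, on log axes in the upper 2 rows and linear axes from 0 in the bottom row. Slc2a4, Pgam2, Ldhb and Pdk2 are higher in each group than in the one before. No rise over CSCs is called in iCMs for Pfkm, Eno3, Pdk3 and Eno1. Slc2a3, Pfkfb3, Aldoc and Slc16a3 are highest in iCMs.

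Lactate dehydrogenase is built from subunits of Ldha, the muscle and glycolytic form, and Ldhb, the heart form. Ldhb was at 34.2, 15.7 and 35.7 CPM in CSCs, 359, 528 and 395 CPM in iCMs and 3484 and 3112 CPM in aCMs. It rose 15.0-fold from CSCs to iCMs (3.91, SE 0.34, adjusted p = 1.21e-05) and was a further 7.72-fold higher in aCMs (-2.95 in iCMs vs aCMs, SE 0.34, adjusted p = 9.3e-05). Ldha was at 864, 1500 and 898 CPM in CSCs, 856, 865 and 815 CPM in iCMs and 1064 and 1005 CPM in aCMs and was called nowhere, with fold changes between -0.36 and -0.07 on the log2 scale.

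Lactate and pyruvate cross the plasma membrane through MCT1, encoded by Slc16a1, and MCT4, encoded by Slc16a3, which exports lactate from glycolytic cells. Slc16a1 was at 38.6, 79.9 and 51.3 CPM in CSCs, 82.5, 133 and 81.9 CPM in iCMs and 716 and 568 CPM in aCMs. Its rise in iCMs over CSCs did not reach the fold threshold (0.81, SE 0.29, adjusted p = 0.0431), and aCMs exceeded iCMs by 6.47-fold. Slc16a3 was at 2.56, 3.11 and 4.12 CPM in CSCs, 19.1, 15.4 and 14.8 CPM in iCMs and 3.94 and 3.74 CPM in aCMs. It was highest in iCMs, by 2.34 over CSCs (SE 0.28, adjusted p = 0.000112) and by 2.10 over aCMs (SE 0.34, adjusted p = 0.000653), and CSCs and aCMs overlapped. The erythroid, neutrophil and mesothelial marker sums given above were highest in iCMs too, though not the mesothelial member Msln. Within iCMs, Slc16a3 was highest in library 1, the mesothelial sum in library 2 and the erythroid and neutrophil sums in library 3. Pfkfb3, Aldoc and Eno2 were also highest in iCMs, and within them in library 2. The part of these cells in the results was not tested. The promoter of Slc16a3 is shown as an example (chr11:120948817-120949066, plus strand, GRCm38.p6). ACGTG, in capitals, occurs in it 2 times on the strand shown, beginning 27 and 14 bases before the start site.
Slc16a3: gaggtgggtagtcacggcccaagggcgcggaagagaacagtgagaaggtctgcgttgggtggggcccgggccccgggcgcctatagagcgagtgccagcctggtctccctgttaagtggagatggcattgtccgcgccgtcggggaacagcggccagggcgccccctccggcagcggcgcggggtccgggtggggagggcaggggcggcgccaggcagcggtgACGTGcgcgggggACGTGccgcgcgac
Another 8 genes had their highest mean log2 CPM in iCMs. Of these, Slc2a1, Hk3, Pfkfb3 and Pdk3 also had ACGTG in a window, Aldoc, Eno2 and Pdk4 did not have it there, and Slc2a3 had no window. For Pdk4 this order did not hold in mean CPM, which was 332.5 in iCMs and 347.6 in aCMs. Repeated matches were not particular to Slc16a3. Ldha had ACGTG 144 and 47 bases before its start site on its own strand, and Hk2 and Pgk1 had more than 1 match on either strand. With all libraries, none of these 3 genes was called higher in iCMs.

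Pyruvate enters mitochondria through the carrier formed by Mpc1 and Mpc2 and is oxidised by pyruvate dehydrogenase, whose catalytic subunits are encoded by Pdha1 and Pdhb. Mpc1 was at 5.10, 6.30 and 4.47 CPM in CSCs, 10.7, 11.2 and 10.0 CPM in iCMs and 111 and 69.4 CPM in aCMs. The iCM rise of Mpc1 stayed below the fold threshold (1.01, SE 0.23, adjusted p = 0.00504) but passed it when the near-identical copy Mpc1-ps, at 14.5 to 15.8 CPM in CSCs, 43.7 to 55.8 CPM in iCMs and 368 to 446 CPM in aCMs, was added (1.52, adjusted p = 6.39e-05). Mpc2 was at 37.3, 26.3 and 48.0 CPM in CSCs, 82.8, 84.9 and 95.4 CPM in iCMs and 431 and 475 CPM in aCMs. It missed the fold threshold in iCMs vs CSCs (1.24, SE 0.22, adjusted p = 0.00121) and passed it with the stricter filter on low counts (1.39) and without CSC library 3 (1.46). Pdha1 was at 146, 187 and 160 CPM in CSCs, 280, 345 and 266 CPM in iCMs and 1935 and 1639 CPM in aCMs. Pdhb was at 103, 88.6 and 107 CPM in CSCs, 246, 348 and 266 CPM in iCMs and 1297 and 1000 CPM in aCMs. Both subunits thus followed the same order without overlap, and in iCMs vs CSCs the call was made for Pdhb (1.53, SE 0.20, adjusted p = 0.000212) and not for Pdha1 (0.85, SE 0.19, adjusted p = 0.00453). In iCMs vs aCMs all 4 genes of the carrier and the enzyme were called lower, with -3.08 for Mpc1, -2.59 for Pdha1 and -2.37 for Mpc2, and with Pdhb 4.01-fold lower, the last not with library totals (-1.29).

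Pyruvate dehydrogenase kinases phosphorylate the enzyme and switch it off. Pdk2, abundant in heart, was at 18.8, 5.91 and 10.7 CPM in CSCs, 61.2, 67.7 and 71.1 CPM in iCMs and 827 and 602 CPM in aCMs. It rose over CSCs by 5.65-fold in iCMs (SE of the log2 fold change 0.36, adjusted p = 0.000387) and by 60.6-fold in aCMs (SE 0.43, adjusted p = 1.82e-06). Pdk4, the isoform induced by fatty acids and fasting, was at 101, 74.6 and 47.1 CPM in CSCs, 366, 303 and 329 CPM in iCMs and 184 and 511 CPM in aCMs. iCMs exceeded CSCs (2.16, SE 0.38, adjusted p = 0.00119) and lay between the 2 aCM libraries, which differed more from each other than the iCM libraries did. Without aCM library 2 the rise of Pdk4 in aCMs over CSCs fell to 1.26 and was no longer called. Pdk1, the hypoxia-inducible isoform, was at 28.6, 55.8 and 33.9 CPM in CSCs, 59.3, 79.1 and 53.0 CPM in iCMs and 202 and 206 CPM in aCMs. It was called lower in iCMs than in aCMs (-1.67, SE 0.28, adjusted p = 0.000945), but not with library totals (-0.97). Pdk3, an isoform known from testis and brain, was at 27.6, 50.2 and 28.2 CPM in CSCs, 30.6, 41.8 and 36.0 CPM in iCMs and 2.76 and 2.30 CPM in aCMs. Its levels in CSCs and iCMs overlapped (0.03, SE 0.26, adjusted p = 0.932), and iCMs exceeded aCMs by 14.3-fold (3.84, SE 0.37, adjusted p = 3.09e-05), the largest change against aCMs after Aldoc among the genes higher in iCMs.

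The balance of the isoforms at a step can be followed as the log2 ratio of their counts in the same library, in which library size and scaling nearly cancel and only changes of the ratio are read, since the lengths of the 2 transcripts differ. The ratios are a description without a test. Pgam2 against Pgam1 was at -2.29, -3.83 and -1.80 in CSCs, 2.86, 3.59 and 3.52 in iCMs and 6.98 and 7.33 in aCMs. Ldhb against Ldha was at -4.66, -6.58 and -4.65 in CSCs, -1.26, -0.71 and -1.05 in iCMs and 1.71 and 1.63 in aCMs. For both pairs the 3 groups were apart and in the order CSCs, iCMs, aCMs. Slc2a4 against Slc2a1 moved from a mean of -7.29 in CSCs to -2.78 in iCMs and 4.12 in aCMs, Hk2 against Hk1 from -2.36 to -0.93 and 1.16, and Pdk2 against Pdk3 from -1.68 to 0.89 and 8.10, each without overlap between groups. In the phosphofructokinase and enolase steps, by contrast, the ratios of iCMs lay within those of CSCs. Pfkm against Pfkl was at 2.48, 0.24 and 1.46 in CSCs, 0.66, 1.31 and 1.21 in iCMs and 2.92 and 2.65 in aCMs. Pfkm against Pfkp had means of 1.46, 1.19 and 4.40 in CSCs, iCMs and aCMs. Eno3 against Eno1 was at 0.44, -2.10 and -0.12 in CSCs, -0.14, -0.05 and 0.19 in iCMs and 3.77 and 3.63 in aCMs. CSC library 2 had the lowest value in all 3 of these ratios.

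In the 4 remaining ratios iCMs departed from the order CSCs, iCMs, aCMs. Pfkfb2 against Pfkfb3 was at 2.10, 1.55 and 1.94 in CSCs, -0.70, -0.81 and -0.49 in iCMs and 3.48 and 4.05 in aCMs, so that the ratio in iCMs was below both other groups. Slc16a1 against Slc16a3 had means of 4.05 in CSCs, 2.56 in iCMs and 7.35 in aCMs, again lowest in iCMs. Aldoa against Aldoc was at 9.97, 12.0 and 11.1 in CSCs, 7.78, 7.83 and 8.19 in iCMs and 16.4 and 13.4 in aCMs, with the same order of groups and no overlap. The aCM value of the last ratio depends on the prior count of 2, since Aldoc had 0 counts in aCM library 1. Pdk4 against Pdk1 was highest in iCMs, with a mean of 2.40 beside 0.90 in CSCs and 0.59 in aCMs.

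**Figure D4:**
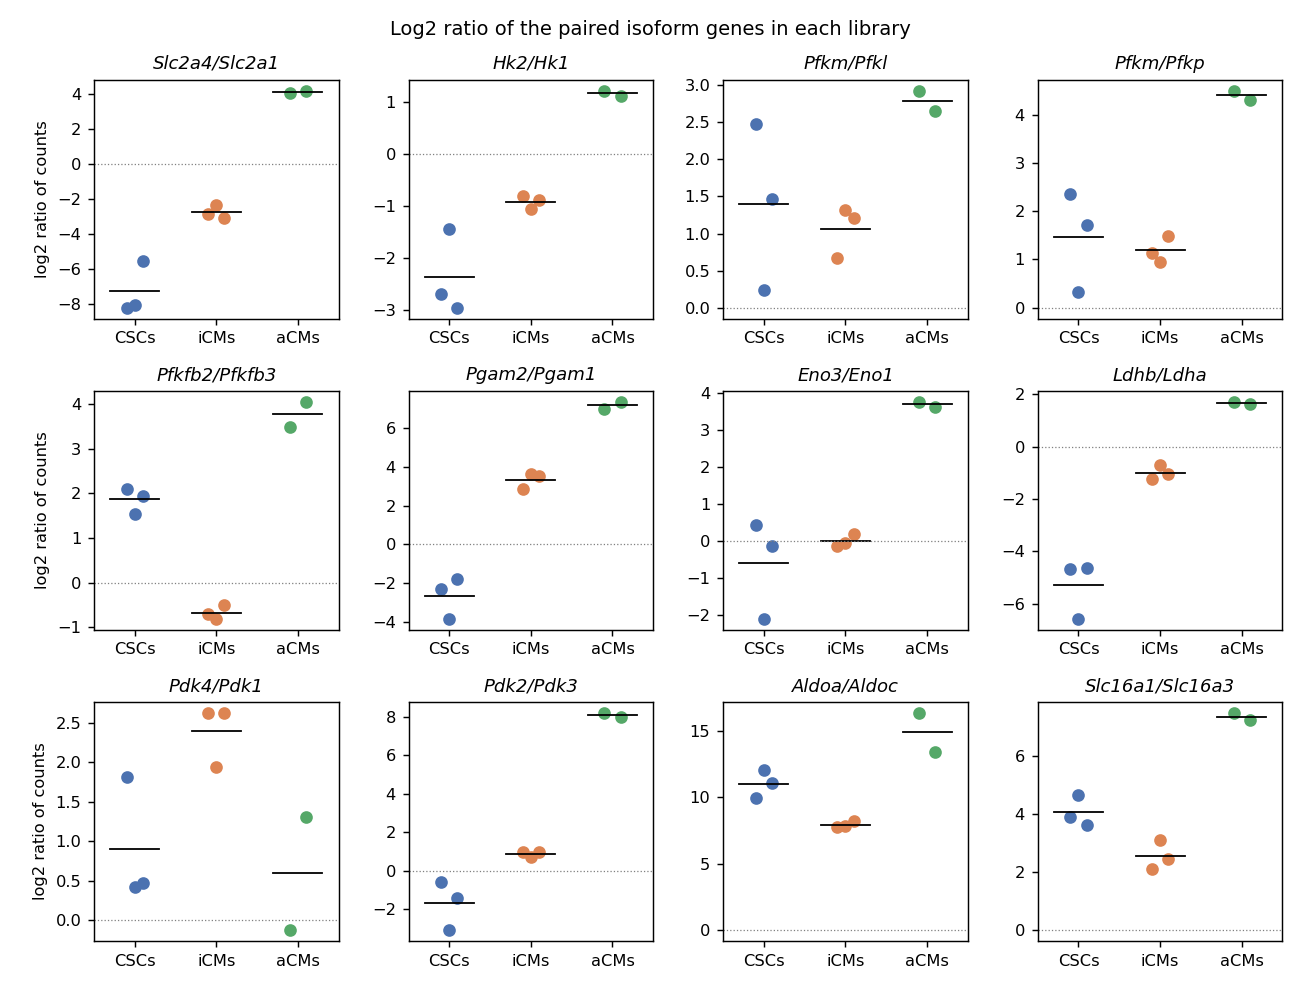
Log2 ratio of the counts of 12 isoform pairs in each library, with a line at the group mean and a dotted line at 0. The ratios Slc2a4/Slc2a1, Hk2/Hk1, Pgam2/Pgam1, Ldhb/Ldha and Pdk2/Pdk3 go up from CSCs through iCMs to aCMs, iCMs overlap CSCs in Pfkm/Pfkl, Pfkm/Pfkp and Eno3/Eno1, and iCMs are lowest in Pfkfb2/Pfkfb3, Aldoa/Aldoc and Slc16a1/Slc16a3.

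Neighbouring pathways were read from lists of genes outside the 38, each beside the shares of all tested genes given above, which were 22% higher and 7.16% lower in iCMs vs CSCs, 19.6% and 15.3% in iCMs vs aCMs and 24.2% and 20.4% in aCMs vs CSCs. Glycogen metabolism had 16 tested genes, of which 5 rose and 0 fell in iCMs vs CSCs, with a median log2 fold change of 0.20, and 1 was higher and 12 were lower in iCMs vs aCMs (-2.54). The 5 that rose were Pygl, Ppp1r3a, Pygm, Epm2a and Gbe1. Pygm, the muscle glycogen phosphorylase, was at 4.94, 7.68 and 5.64 CPM in CSCs, 129, 144 and 127 CPM in iCMs and 2137 and 1865 CPM in aCMs. Its step of 4.45 in iCMs vs CSCs (SE 0.23, adjusted p = 3.08e-07) was beside one of 8.36 in aCMs vs CSCs (SE 0.28, adjusted p = 1.2e-08). Pygl, the liver phosphorylase, was at 0.0455 CPM or less in CSCs, 18.6 to 26.0 CPM in iCMs and 9.20 and 9.58 CPM in aCMs. The pentose phosphate list of 8 genes went the other way in aCMs, where 4 fell and 0 rose against CSCs (median -0.73). G6pdx, the enzyme that opens this pathway, was at 58.7 to 114 CPM in CSCs, 67.4 to 77.5 CPM in iCMs and 4.07 and 7.28 CPM in aCMs. Pgd was the gene of this list that fell in iCMs vs CSCs (-1.38, SE 0.16, adjusted p = 9.28e-05).

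Among 14 other tested genes of lactate and pyruvate use, 2 rose and 2 fell in iCMs vs CSCs (median -0.05), the former a smaller share than the 22% over all tested genes, and 10 were lower and 1 was higher in iCMs vs aCMs (-2.33). Slc16a7, which encodes the pyruvate transporter MCT2, rose by 6.11 in iCMs vs CSCs (SE 0.66, adjusted p = 5.43e-05), from 0.0669 CPM or less to 2.06 to 2.99 CPM. Bsg, the chaperone of MCT1 and MCT4, was at 498 to 639 CPM in CSCs, 461 to 547 CPM in iCMs and 4166 and 3354 CPM in aCMs. Ldhd, the D-lactate dehydrogenase, was at 0.674, 1.18 and 7.38 CPM in iCMs, and its highest value was that of library 3, as for Slc2a12. Of 11 other tested enzymes of glycolysis and gluconeogenesis, 4 rose and 0 fell in iCMs vs CSCs (median 0.12), beside 22% and 7.16% over all tested genes, and 2 were higher and 5 lower in iCMs vs aCMs (-1.41). Fbp2, the muscle fructose bisphosphatase, had 0 counts in all CSC libraries and 0.737 to 2.86 CPM in iCMs, at least 99.5-fold higher when 3 counts are taken over the CSC group. Bpgm, which makes the bisphosphoglycerate of red blood cells, was at 65.6, 129 and 117 CPM in iCMs and 29.8 to 49.3 CPM in CSCs (1.47, SE 0.29, adjusted p = 0.00225). The erythroid marker sums of the same iCM libraries were 6378, 25790 and 26220 CPM, lowest where Bpgm was lowest, and their part in the result was not tested.

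The list of glucose uptake control had 14 tested genes, of which 3 rose and 0 fell in iCMs vs CSCs (median 0.24), a share of rises near the 22% over all tested genes, and 1 was higher and 5 lower in iCMs vs aCMs (-0.72). Prkaa2, a catalytic subunit of AMP-activated kinase, was at 1.61 to 2.91 CPM in CSCs, 20.7 to 36.5 CPM in iCMs and 135 and 114 CPM in aCMs. Mlxipl, the glucose-sensing factor ChREBP, was at 0.251 CPM or less in CSCs, 1.43 to 2.25 CPM in iCMs and 59.4 and 68.8 CPM in aCMs. Irs2, an insulin receptor substrate, was highest in iCMs at 86.8 to 102 CPM, against 8.62 to 28.7 CPM in CSCs and 24.2 and 35.8 CPM in aCMs. Of 16 hypoxia-inducible genes outside glycolysis, 3 rose and 1 fell in iCMs vs CSCs (median 0.73), near the 22% and 7.16% over all tested genes, and 3 were higher and 5 lower in iCMs vs aCMs (-0.01). The 3 were Epas1, Adm and Ankrd37, and the gene that fell was P4ha1. Epas1 was at 0.887 CPM or less in CSCs and at 97.5 to 108 CPM in iCMs, and Adm at 0.146 CPM or less and at 7.52 to 11.4 CPM. Both are also genes of endothelial cells, whose marker sums were 9.80 CPM or less in CSCs and 1135 to 1345 CPM in iCMs. In aCMs these sums were 895 and 1198 CPM, while Epas1 was at 428 and 490 CPM and Adm at 7.10 and 8.15 CPM. The part of these cells was not tested. Of 5 other tested hexose transporter genes, 1 rose and 0 fell in iCMs vs CSCs, which was Slc2a13 (5.33, SE 0.55, adjusted p = 3.74e-05), and Slc2a10 was at 29.1 to 35.8 CPM in CSCs, 12.9 to 15.5 CPM in iCMs and 0.789 and 0.958 CPM in aCMs.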

How the data were processed

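Total RNA was depleted of ribosomal RNA, sequenced as paired reads and analysed by the authors in Strand NGS with Ensembl transcripts, on mm10 per the labels. The deposited table holds the authors' estimated counts per gene, taken here as not scaled by length or depth although its name also mentions RPKM. Whether the counting used strand is not given in the sources used here. Values that were not whole (50.6%) were rounded. The small RNA table of the same study was not used.

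Genes were filtered with edgeR 4.0.16 under R 4.3.3 (filterByExpr), libraries were scaled by TMM, and the quasi-likelihood test was fitted to all 8 libraries, with p-values adjusted over 20254 genes by the method of Benjamini and Hochberg. Precision is given as SE and, for genes of 3 counts or fewer in a group, as 95% counting intervals, which cover counting error only. Isoform ratios used a prior count of 2. Every member is named, with each library's value where it belongs to an isoform pair or was called, and genes of other lists were named from those called with the largest changes, up to 4 a list. Gbe1, Bsg, Irs2, Bpgm and the markers named singly, such as Kit and Myh1, were chosen after their values were seen. The members and lists were chosen with earlier results of these data known. Gyg1, of the glycogen list, was not matched in the table. The copies of Aldoa, Gapdh, Pgk1, Eno1 and Ldha named in the table held 15.2 CPM or less each, and reads shared with other copies may make these genes uncertain. Promoter sequences are those of RefSeq.

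Alternatives were library totals, the size factors of DESeq2, the test of DESeq2 1.42.0, no filter, a stricter filter (100 counts in 2 libraries), only the groups compared, a replicate block, leave-one-out fits, either threshold alone, a prior count of 0.5 and, chosen after seeing the data, Pgam1 and Mpc1 summed with their copies. The steps were tested on simulated data. No library was left out, and none was a duplicate.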

Additional observations from a re-analysis of the deposited data

How the results depend on the processing

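The counts of called genes stayed within 1.5 times of those reported under every alternative, apart from the genes called lower in iCMs vs CSCs, reported as 0. These were 2 by the adjusted p alone (Eno1 and Pkm) and 0 to 1 in the leave-one-out fits, where Eno1 was called without CSC library 1 and Pgam1 without CSC library 3. Over the leave-one-out fits the other counts were 13 to 14 higher in iCMs vs CSCs, 5 to 7 higher and 20 to 21 lower in iCMs vs aCMs, and 20 to 23 higher and 4 lower in aCMs vs CSCs. In aCMs vs CSCs the calls lost were Slc2a3 without aCM library 1 (1.14, adjusted p = 0.0932) and Hk3 and Pdk4 without aCM library 2. The 13 genes called in iCMs vs CSCs were called in every planned fit that tested them, as were 19 of the 28 in iCMs vs aCMs and 22 of the 26 in aCMs vs CSCs, and no call changed direction. Library totals changed most calls, with 7 lost and 3 gained in iCMs vs aCMs (gained were Slc2a1, Pgam1 and Eno1) and 2 lost and 1 gained in aCMs vs CSCs. They leave out the TMM factors, which were 0.685 and 0.716 in the aCM libraries and 1.04 to 1.19 in the others. The same-numbered CSC and iCM libraries deviated together by correlations of 0.0336, 0.155 and 0.0709, and CSC library 1 correlated more with iCM library 3 (0.0665) than with its own number, so the numbers were not taken as pairing. With the replicate block, the counts were 13 higher and 0 lower in iCMs vs CSCs, 9 and 21 in iCMs vs aCMs and 22 and 4 in aCMs vs CSCs, the change being Slc2a1 and Pgam1 called higher in iCMs than in aCMs. With a prior count of 0.5 the group means of the isoform ratios moved by less than 1 SD. Depth limits the genes with few counts, Slc2a12, Hk3, Aldoc, Slc2a3 and Eno2, whose levels in at least 1 group rest on few counts.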
